A study of Rattus norvegicus with 16 samples.

Results

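Muscle transcripts were followed in RNA prepared from rat liver. The 37 genes described here are muscle genes selected on high values in 2 arrays of different groups, M 2 and 0.5M 4, among the 16 arrays of the series. They are 37 of the 26872 genes represented once each after probes of a gene were reduced to the brightest. By known role they are 24 genes of skeletal muscle, 6 of heart muscle and 7 of smooth muscle. All 37 were found, through 44 probes. The values that chose the members are their log2 ratios in these same arrays, so the levels in M 2 and 0.5M 4 are given as a description. Any statistic that includes these 2 arrays uses the values that chose the members and supports nothing about them.

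Each group had 4 arrays, and each array held liver RNA pooled from 2 male pups of the Sprague-Dawley strain, aged 21 days. In group M the dams received a mixture of methyl mercury (MeHg), organochlorine pesticides (OCPs) and polychlorinated biphenyls (PCBs) in corn oil at 1.0 mg/kg/day, and in group 0.5M the same mixture at 0.5 mg/kg/day. In group AhR they received agonists of the aryl hydrocarbon receptor (non-ortho-PCBs, polychlorinated dibenzodioxins and dibenzofurans) at 1.8 ng/kg/day in dioxin toxic equivalents, and in group C corn oil only. Pups of all 4 groups stayed with their birth mothers and were exposed through the dam, in gestation and lactation. On every array Cy5-labelled liver RNA was hybridised with 1 universal reference RNA, made from 14 rat cell lines and labelled with Cy3. A value below is log2 of liver over reference for 1 probe, so levels of different genes are not compared. Litters are not given, so some arrays may share litters and p-values may measure technical as well as animal spread. Replicates 1 and 2 of every group lay on 1 slide and replicates 3 and 4 on the other.

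Liver markers were present in both high arrays: of 18 hepatocyte genes, 17 stood well above background in M 2 and 18 in 0.5M 4. Of all 26872 genes, 10146 did in M 2 and 12904 in 0.5M 4. M 1 was the dimmest array, with 7082 of 30367 probes well above background in the liver channel, against 8828 to 15686 in the other 15. Among the 14 arrays other than M 2 and 0.5M 4, M 1 gave the highest log2 ratio of 24 of the 37 members, while only 2 of the 37 were well above background on it. In bulk RNA, fewer cells of a type and less RNA per cell cannot be told apart.

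Striated muscle contracts by myosin filaments pulling on actin filaments in sarcomeres, under control of calcium through troponin and tropomyosin. Each of these proteins comes in isoforms that mark fast and slow fibres, developing fibres, heart and smooth muscle. Slow fibres are rich in myoglobin and use oxygen, and fast fibres rely more on glycolysis and phosphocreatine. Young fibres carry embryonic and perinatal myosins before adult ones replace them. Smooth muscle has its own actins and myosin and lacks troponin. Liver itself holds smooth muscle in its vessel walls and desmin in stellate cells, and no skeletal or heart muscle fibres.

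In M 2, 35 of the 37 members lay above all 14 other arrays, as did 9% of all 26872 genes. In 0.5M 4 the count was also 35, against 8.42% of all genes, and 34 members lay above the 14 in both arrays, against 3.48%. By more than 1 log2 unit, 32 members lay above in M 2 (0.741% of all genes), 28 in 0.5M 4 (0.714%) and 25 in both (0.514%). Since the members were chosen for these high values, nothing is read from the counts. Well above background in the liver channel were 34 members in M 2 and 36 in 0.5M 4, against 2 to 24 in each of the other 14 arrays. Of all 26872 genes, 10146 were so in M 2 and 12904 in 0.5M 4. M 1, with 2 members, had 7082 probes well above background, and C 3, with 24 members, had 15686. By class, 23 of 24 skeletal, 5 of 6 heart and 6 of 7 smooth muscle genes lay above the 14 arrays in both. Nothing is read from these counts either.

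The 3 classes differed in how far they stood out. Over the 24 skeletal muscle genes the median difference was 4.73 between M 2 and the median of M 1, M 3 and M 4, and 4.71 between 0.5M 4 and the median of 0.5M 1, 0.5M 2 and 0.5M 3. The heart muscle genes had medians of 1.88 and 1.97. The smooth muscle genes had 3.35 in M 2 and 1.38 in 0.5M 4. Over all genes these medians were -0.0073 and -0.0051. With loess, skeletal and heart medians were thus close in the 2 arrays and the smooth muscle median was higher in M 2. With each array centred on its median in place of loess, the medians were 3.31 in M 2 and 5.10 in 0.5M 4 for skeletal, 1.15 and 1.67 for heart, and 2.06 and 1.87 for smooth muscle genes. How close M 2 and 0.5M 4 are therefore depends on the scaling, and comparisons of their levels below are on the loess scale unless another is named. The differences between classes were not tested.

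**Figure D1:**
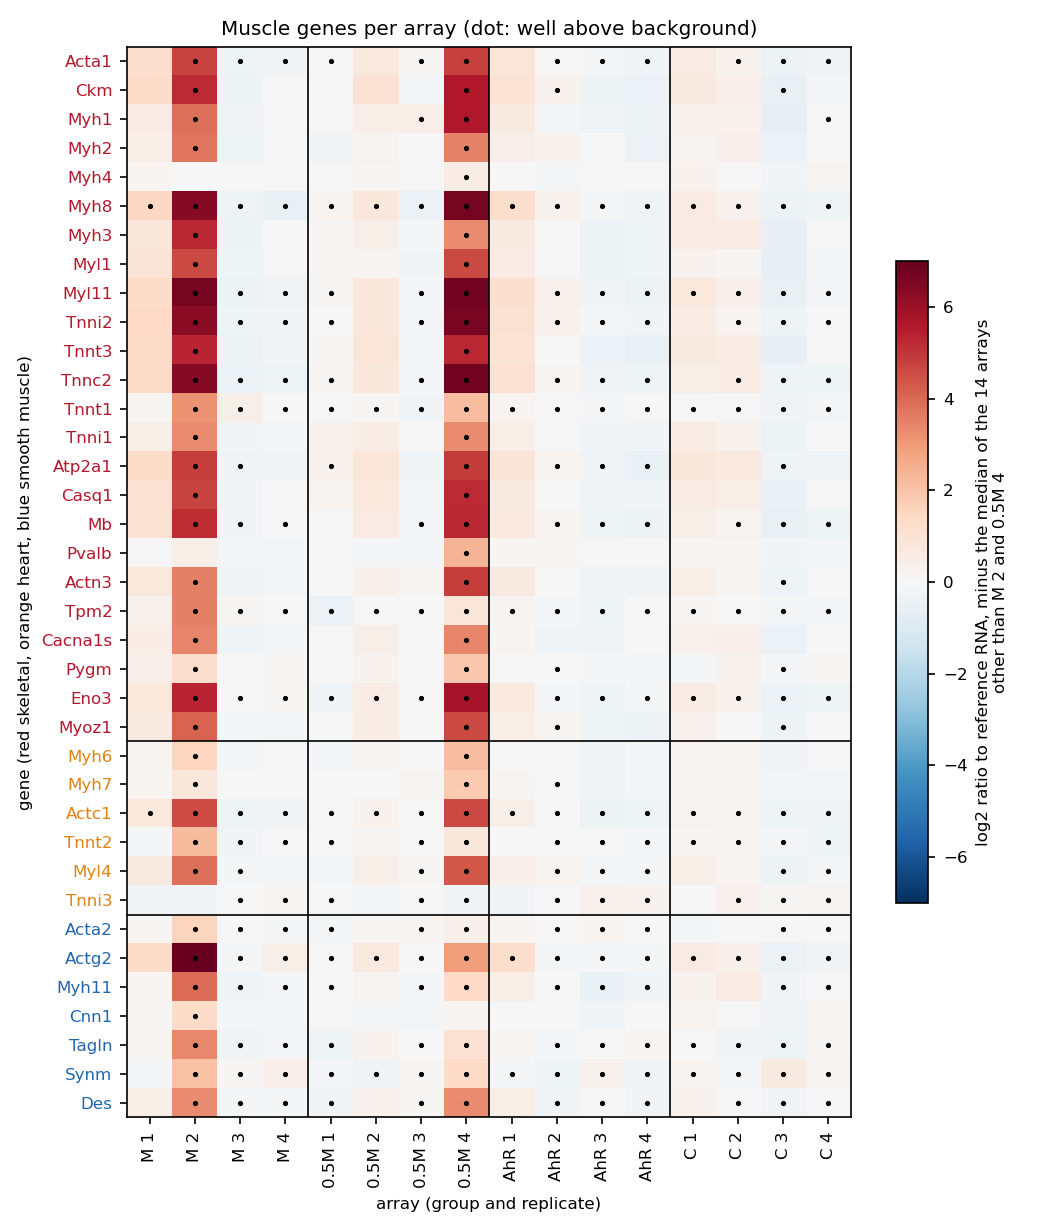
Heat map of the 37 muscle genes (rows, by class) in the 16 arrays (columns, by group). Colour is the log2 ratio of liver to reference RNA minus that gene's median over the 14 arrays other than M 2 and 0.5M 4, and a dot marks a probe well above background in the liver channel. The columns M 2 and 0.5M 4 are red for nearly every skeletal gene, Actg2 is darker in M 2 than in 0.5M 4, and Myh4 and Tnni3 are pale in both.

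Of the 4 muscle actins, the skeletal and heart forms behaved alike in the 2 high arrays. Acta1, the actin of adult skeletal muscle, was 2.68 in M 2, against -0.87, -2.38 and -2.32 in M 1, M 3 and M 4. It was 2.72 in 0.5M 4, against -2.01, -1.37 and -2.00 in 0.5M 1, 0.5M 2 and 0.5M 3. It was -1.22, -2.10, -2.22 and -2.32 in AhR 1 to AhR 4, and -1.48, -1.82, -2.40 and -2.30 in C 1 to C 4. No other array came near either high array. Actc1, the actin of heart that developing skeletal muscle also makes, was 3.38 in M 2, against -0.43, -1.47 and -1.40 in M 1, M 3 and M 4. It was 3.46 in 0.5M 4, against -1.16, -0.92 and -1.17 in 0.5M 1, 0.5M 2 and 0.5M 3. It was -0.75, -1.13, -1.51 and -1.49 in AhR 1 to AhR 4, and -0.95, -1.01, -1.45 and -1.39 in C 1 to C 4. The 2 high arrays stood apart for Actc1 as they did for Acta1. With loess M 2 minus 0.5M 4 was -0.039 for Acta1 and -0.073 for Actc1, and with median centring -1.44 and -1.49.

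The smooth muscle actins behaved differently. Acta2, the actin of vascular smooth muscle and of activated stellate cells, was 1.62 in M 2, against 0.13, 0.0074 and -0.077 in M 1, M 3 and M 4. It was 0.38 in 0.5M 4, against -0.037, 0.14 and 0.19 in 0.5M 1, 0.5M 2 and 0.5M 3. It was 0.19, 0.007, 0.19 and 0.065 in AhR 1 to AhR 4, and -0.019, -0.013, 0.03 and 0.053 in C 1 to C 4. M 2 stood clear of all arrays, while 0.5M 4 lay only just above the highest of the 14, 0.5M 3. Actg2, the gamma actin of gut and other visceral smooth muscle, was 4.62 in M 2, against -1.10, -2.58 and -1.99 in M 1, M 3 and M 4. It was 0.52 in 0.5M 4, against -2.44, -1.76 and -2.41 in 0.5M 1, 0.5M 2 and 0.5M 3. It was -1.19, -2.51, -2.51 and -2.52 in AhR 1 to AhR 4, and -1.85, -2.08, -2.84 and -2.60 in C 1 to C 4. Actg2 showed the widest gap between M 2 and 0.5M 4 of the 37 members, 4.11 log2 units. With median centring the difference was 2.68 for Actg2 and 0.67 for Acta2.

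**Figure D2:**
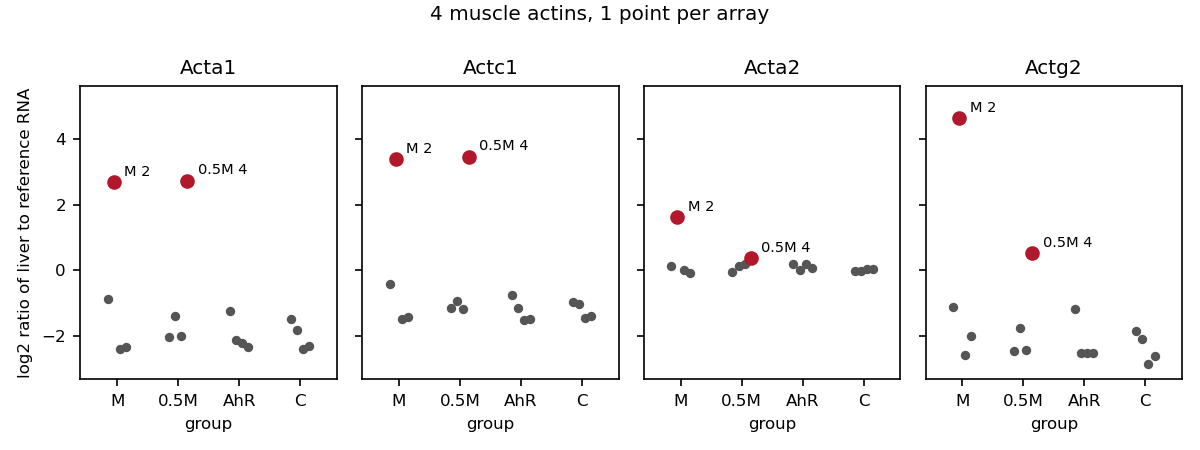
Log2 ratio of liver to reference RNA for the actins Acta1, Actc1, Acta2 and Actg2, 1 point per array, by group, with M 2 and 0.5M 4 in red. On this loess scale Acta1 and Actc1 are at nearly the same height in both arrays, and Acta2 and Actg2 are higher in M 2.

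The 250 bases before the annotated start of the 4 actin genes are shown because these genes, near copies in their coding parts, include a pair that was higher in M 2 than in 0.5M 4 under all 6 scalings (Acta2 and Actg2) and a pair that was not (Acta1 and Actc1). The sequences are those of RefSeq on GRCr8, read 5′ to 3′ along the gene, and all 4 genes lie on the minus strand. Capitals mark matches to the CArG box with at most 1 mismatch, the site bound by serum response factor, and to TATAAA, the usual core of a TATA box.
Acta1, chr19:68784195-68784444: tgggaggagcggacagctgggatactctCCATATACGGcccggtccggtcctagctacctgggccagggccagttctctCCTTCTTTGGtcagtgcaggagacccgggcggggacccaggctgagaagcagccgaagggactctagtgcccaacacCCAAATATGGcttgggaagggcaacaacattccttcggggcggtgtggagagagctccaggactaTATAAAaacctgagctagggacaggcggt
Actc1, chr3:121271828-121272077: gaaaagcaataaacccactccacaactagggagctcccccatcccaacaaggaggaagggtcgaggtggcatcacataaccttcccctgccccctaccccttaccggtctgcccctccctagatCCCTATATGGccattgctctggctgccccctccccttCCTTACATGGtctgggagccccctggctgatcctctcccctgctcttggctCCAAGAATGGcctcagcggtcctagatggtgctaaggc
Acta2, chr1:241172504-241172753: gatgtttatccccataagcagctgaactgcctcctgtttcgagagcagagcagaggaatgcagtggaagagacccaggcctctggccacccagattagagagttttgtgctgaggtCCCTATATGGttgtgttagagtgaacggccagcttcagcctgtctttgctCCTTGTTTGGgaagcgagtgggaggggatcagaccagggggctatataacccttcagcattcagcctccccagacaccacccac
Actg2, chr4:117594040-117594289: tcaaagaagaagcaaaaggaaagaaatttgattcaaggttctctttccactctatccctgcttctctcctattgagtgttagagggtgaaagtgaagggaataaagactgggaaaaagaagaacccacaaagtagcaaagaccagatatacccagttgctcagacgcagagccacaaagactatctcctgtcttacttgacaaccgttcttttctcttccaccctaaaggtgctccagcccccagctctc

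Acta1 held 3 such CArG matches, of which that at -94 to -85 from the start was exact, and TATAAA at -29 to -24. Actc1 held 3 and Acta2 held 2, each with 1 mismatch, and Actg2 held none in this window. On either strand, a CArG box with at most 1 mismatch was found in 18.7% of the 33469 promoter windows of the same length, and in 19 of the 34 members with a window. An exact CArG box was in 1.5% of windows and in 2 members. The allowance of 1 mismatch was set after the exact search had been seen. CATTCC, the MCAT element, was in 12.1% of windows and 8 members, the MEF2 site in 2.96% and 3 members, CANNTG, the E-box bound by myogenic factors, in 65.5% and 26 members, and TATAAA in 12.9% and 11 members. Myh11, Tagln and Tnnt3 had no window in the table. A match of letters is a description of the window and not a bound site.

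Among the myosin heavy chains, the fast adult, slow and developmental forms were all measured. Myh8, the perinatal heavy chain, was 3.13 in M 2, against -1.81, -3.53 and -3.75 in M 1, M 3 and M 4. It was 3.48 in 0.5M 4, against -3.09, -2.44 and -3.62 in 0.5M 1, 0.5M 2 and 0.5M 3. It was -2.00, -2.99, -3.37 and -3.50 in AhR 1 to AhR 4, and -2.64, -2.96, -3.56 and -3.52 in C 1 to C 4. Its probe was well above background on all 16 arrays, and both high arrays lay more than 4 log2 units above the highest of the other 14, M 1. Myh3, the embryonic heavy chain, was 4.20 in M 2, against -0.25, -1.42 and -1.07 in M 1, M 3 and M 4. It was 2.24 in 0.5M 4, against -0.98, -0.66 and -1.20 in 0.5M 1, 0.5M 2 and 0.5M 3. It was -0.44, -1.07, -1.45 and -1.35 in AhR 1 to AhR 4, and -0.49, -0.47, -1.65 and -1.11 in C 1 to C 4. Myh3 was higher in M 2 than in 0.5M 4 by 1.97, where Myh8 differed by -0.35. No array but the 2 high ones had Myh3 well above background, and the fold over the other arrays of the group was at least 23.2 in M 2 and at least 7.81 in 0.5M 4. Each bound is the smaller of the log2 ratio difference and a Cy5 difference, both from the mean of the group's other arrays. The Cy5 difference sets each dim array at its own Cy5 signal or, if higher, at its lowest signal among probes that passed the background test. For Myh3, and for Myh7 below, the Cy5 difference was the smaller, and for the bounds of Myh4, Tnnt3, Ckm and Pvalb below the log2 ratio difference was. All bounds are open to dye bias because no dyes were swapped.

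The adult fast heavy chains differed from one another. Myh1, of type IIx fibres, was 2.64 in M 2, against -0.67, -1.46 and -1.22 in M 1, M 3 and M 4. It was 4.42 in 0.5M 4, against -1.18, -0.73 and -0.72 in 0.5M 1, 0.5M 2 and 0.5M 3. It was -0.56, -1.32, -1.46 and -1.55 in AhR 1 to AhR 4, and -0.90, -0.91, -1.76 and -1.26 in C 1 to C 4. Myh1 was lower in M 2 than in 0.5M 4 by a log2 difference of -1.78. Myh2, of type IIa fibres, was 3.01 in M 2, against -0.24, -1.01 and -0.71 in M 1, M 3 and M 4. It was 2.78 in 0.5M 4, against -0.94, -0.54 and -0.71 in 0.5M 1, 0.5M 2 and 0.5M 3. It was -0.36, -0.47, -0.73 and -1.11 in AhR 1 to AhR 4, and -0.54, -0.35, -1.13 and -0.75 in C 1 to C 4. Both high arrays lay above all others for Myh2. Myh4, of type IIb fibres, the fastest of rat limb muscle, was -0.00065 in M 2, against 0.11, -0.054 and 0.011 in M 1, M 3 and M 4. It was 0.50 in 0.5M 4, against -0.05, 0.035 and 0.02 in 0.5M 1, 0.5M 2 and 0.5M 3. It was -0.041, -0.10, -0.028 and -0.016 in AhR 1 to AhR 4, and 0.25, -0.072, -0.19 and 0.055 in C 1 to C 4. Myh4 was well above background only in 0.5M 4, and in M 2 it lay within the range of the other 14 arrays. Its fold in 0.5M 4 over the other 0.5M arrays was at least 1.41, the smallest bound among the genes classed as skeletal.

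The slow heavy chain and the slow troponins were present beside the fast ones. Myh7, the slow chain that heart ventricle shares, was 0.61 in M 2, against -0.056, -0.20 and -0.24 in M 1, M 3 and M 4. It was 1.63 in 0.5M 4, against -0.17, -0.18 and -0.091 in 0.5M 1, 0.5M 2 and 0.5M 3. It was -0.13, -0.22, -0.36 and -0.25 in AhR 1 to AhR 4, and -0.11, -0.06, -0.24 and -0.25 in C 1 to C 4. Both high arrays exceeded all others, 0.5M 4 by more than M 2. The fold of Myh7 was at least 1.38 in M 2 and at least 3.36 in 0.5M 4. Its raw Cy5 signal in M 2 was low, 90.25, against 59.25 to 83.5 in the other 14 arrays. Tnni1, slow troponin I, was 2.46 in M 2, against -0.39, -1.03 and -0.88 in M 1, M 3 and M 4. It was 2.46 in 0.5M 4, against -0.58, -0.28 and -0.82 in 0.5M 1, 0.5M 2 and 0.5M 3. It was -0.33, -0.82, -1.02 and -1.03 in AhR 1 to AhR 4, and -0.29, -0.60, -1.17 and -0.86 in C 1 to C 4. M 2 minus 0.5M 4 was 0.0009 for Tnni1 with loess, -1.13 with median centring and 0.26 with the scanner's ratio. Tnnt1, slow troponin T, was 2.83 in M 2, against -0.18, 0.14 and -0.31 in M 1, M 3 and M 4. It was 1.85 in 0.5M 4, against -0.27, -0.23 and -0.51 in 0.5M 1, 0.5M 2 and 0.5M 3. It was -0.10, -0.24, -0.38 and -0.32 in AhR 1 to AhR 4, and -0.34, -0.24, -0.55 and -0.43 in C 1 to C 4. Tnnt1 was higher in M 2 than in 0.5M 4, except with each array centred on its median.

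The fast troponins stood more than 5 log2 units above the median of the other arrays of the group in both M 2 and 0.5M 4. Tnni2, fast troponin I, was 3.74 in M 2, against -1.22, -2.89 and -2.79 in M 1, M 3 and M 4. It was 4.06 in 0.5M 4, against -2.56, -1.81 and -2.70 in 0.5M 1, 0.5M 2 and 0.5M 3. It was -1.52, -2.30, -2.71 and -2.78 in AhR 1 to AhR 4, and -2.09, -2.37, -2.88 and -2.62 in C 1 to C 4. Both high arrays lay far above the rest for Tnni2. Tnnt3, fast troponin T, was 3.30 in M 2, against -0.69, -2.41 and -2.23 in M 1, M 3 and M 4. It was 3.23 in 0.5M 4, against -1.96, -1.20 and -2.12 in 0.5M 1, 0.5M 2 and 0.5M 3. It was -1.08, -2.01, -2.44 and -2.55 in AhR 1 to AhR 4, and -1.43, -1.53, -2.61 and -2.07 in C 1 to C 4. Tnnt3 was well above background in no other array, and its fold was at least 33.9 in M 2 and at least 31.9 in 0.5M 4. Tnnc2, fast troponin C, was 3.49 in M 2 and 3.80 in 0.5M 4, against -3.35 to -1.58 in the other 14 arrays.

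The remaining contractile members of skeletal muscle were fast light chains, tropomyosin and proteins of the Z-disc. Myl11, the fast regulatory light chain, was 3.70 in M 2 and 3.74 in 0.5M 4, against -3.57 to -1.73 in the other 14 arrays, the largest differences of any member, 6.98 and 6.69 from the median of the other M and of the other 0.5M arrays. Myl1, the fast essential light chain, was 3.51 in M 2 and 3.53 in 0.5M 4, against -1.69 to -0.20 in the other 14 arrays. M 2 minus 0.5M 4 was -0.044 for Myl11 and -0.013 for Myl1 with loess, and -1.48 and -1.26 with median centring. Tpm2, the beta tropomyosin of slow skeletal fibres and of smooth muscle, was 3.23 in M 2 and 0.57 in 0.5M 4, against -0.70 to 0.045 in the other 14 arrays. Tpm2 stood out as a skeletal member that was much higher in M 2 than in 0.5M 4, as the smooth muscle genes were. Actn3, the alpha-actinin of fast fibres, was 2.59 in M 2 and 3.88 in 0.5M 4, against -1.25 to -0.23 in the other 14 arrays. Myoz1, a Z-disc protein of fast fibres that binds calcineurin, was 3.15 in M 2 and 3.67 in 0.5M 4, against -1.31 to -0.35 in the other 14 arrays.

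Genes of energy supply were high in both arrays. Ckm, muscle creatine kinase, was 3.13 in M 2, against -0.83, -2.48 and -2.08 in M 1, M 3 and M 4. It was 3.52 in 0.5M 4, against -2.14, -1.12 and -2.18 in 0.5M 1, 0.5M 2 and 0.5M 3. It was -1.16, -1.86, -2.44 and -2.49 in AhR 1 to AhR 4, and -1.46, -1.77, -2.61 and -2.27 in C 1 to C 4. None of the other M or 0.5M arrays had Ckm well above background, and its fold was at least 30.4 in M 2 and at least 40.3 in 0.5M 4. Mb, the oxygen store myoglobin of slow and oxidative fibres and of heart, was 3.44 in M 2, against -0.72, -1.93 and -1.74 in M 1, M 3 and M 4. It was 3.54 in 0.5M 4, against -1.73, -1.17 and -1.82 in 0.5M 1, 0.5M 2 and 0.5M 3. It was -1.03, -1.61, -2.02 and -2.08 in AhR 1 to AhR 4, and -1.32, -1.55, -2.27 and -2.06 in C 1 to C 4. Both high arrays lay above all others for Mb. Eno3, muscle enolase of glycolysis, was 3.47 in M 2 and 3.92 in 0.5M 4, against -2.26 to -1.08 in the other 14 arrays, and was well above background on 14 of the 16 arrays. Pygm, muscle glycogen phosphorylase, was 1.07 in M 2 and 1.70 in 0.5M 4, against -0.28 to 0.19 in the other 14 arrays. Pygm stood out least of these 4.

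Calcium handling was represented by 4 genes. Atp2a1, the calcium pump of fast fibres, was 2.82 in M 2 and 2.91 in 0.5M 4, against -2.47 to -0.70 in the other 14 arrays. Casq1, the calcium store protein calsequestrin of fast fibres, was 3.46 in M 2 and 3.94 in 0.5M 4, against -1.74 to -0.25 in the other 14 arrays. Cacna1s, the voltage sensor of the transverse tubule, was 2.67 in M 2 and 2.70 in 0.5M 4, against -1.16 to -0.22 in the other 14 arrays. These 3 stood out in both arrays. Pvalb, the calcium buffer parvalbumin of fast fibres in rodents, was 0.25 in M 2, against -0.16, -0.25 and -0.29 in M 1, M 3 and M 4. It was 2.18 in 0.5M 4, against -0.18, -0.30 and -0.31 in 0.5M 1, 0.5M 2 and 0.5M 3. It was -0.066, -0.06, -0.16 and -0.17 in AhR 1 to AhR 4, and -0.11, -0.017, -0.36 and -0.30 in C 1 to C 4. Pvalb was well above background in 0.5M 4 only, with a fold of at least 5.44 over the other 0.5M arrays.

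By fibre type, 12 of 13 fast members lay above the 14 other arrays in both M 2 and 0.5M 4, as did 3 of 3 slow and 2 of 2 developmental members. Of all genes 3.48% did. The members were chosen for these values, so nothing is read from the counts. The median difference from the other arrays of the group was 4.66 in M 2 and 4.73 in 0.5M 4 for the fast genes. It was 3.01 and 2.12 for the slow genes, and 5.96 and 4.89 for the developmental genes. A ratio to reference depends on the probe and on the reference RNA, so these medians do not rank fibre types within a sample.

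Of the 6 genes counted as heart muscle, Actc1 and Myh7 were described above. Myl4, the atrial light chain that embryonic muscle also makes, was 3.03 in M 2 and 3.48 in 0.5M 4, against -1.19 to -0.23 in the other 14 arrays. Tnnt2, cardiac troponin T, which developing skeletal muscle also makes, was 2.18 in M 2, against -0.089, -0.23 and 0.02 in M 1, M 3 and M 4. It was 0.78 in 0.5M 4, against -0.053, 0.031 and 0.0037 in 0.5M 1, 0.5M 2 and 0.5M 3. It was 0.024, -0.073, 2.9e-05 and -0.089 in AhR 1 to AhR 4, and 0.089, 0.17, -0.089 and -0.34 in C 1 to C 4. Tnnt2 was higher in M 2 than in 0.5M 4. Myh6, the alpha heavy chain best known from the atrium, was 1.27 in M 2, against -0.091, -0.31 and -0.21 in M 1, M 3 and M 4. It was 1.90 in 0.5M 4, against -0.33, -0.17 and -0.24 in 0.5M 1, 0.5M 2 and 0.5M 3. It was -0.26, -0.23, -0.44 and -0.41 in AhR 1 to AhR 4, and -0.087, -0.13, -0.50 and -0.28 in C 1 to C 4. Both arrays exceeded the rest, 0.5M 4 by more.

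Tnni3, cardiac troponin I, which adult skeletal muscle lacks, did not follow the others. It was -0.01 in M 2, against -0.003, 0.16 and 0.32 in M 1, M 3 and M 4. It was 0.028 in 0.5M 4, against 0.19, 0.045 and 0.16 in 0.5M 1, 0.5M 2 and 0.5M 3. It was 0.002, 0.22, 0.49 and 0.45 in AhR 1 to AhR 4, and 0.17, 0.53, 0.31 and 0.38 in C 1 to C 4. M 2 had the lowest value of all 16 arrays and was not well above background, and 0.5M 4 lay within the range of the rest. Tnni3 was the 1 member below the 14 other arrays in M 2, where 8.06% of all genes were. No member was below them in 0.5M 4 (7.54% of all genes) or in both (1.3%).

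Other heart genes were measured as well. Of 10 on the array, 2 lay above the 14 others in both, against 3.48% of all genes. Pln, the regulator phospholamban of heart, slow skeletal and smooth muscle, was 2.03 in M 2 and 0.32 in 0.5M 4, against -0.28 to 0.039 in the other 14 arrays. Gja1, a gap junction protein of many cell types, was 0.49 in M 2 and 0.55 in 0.5M 4, against -0.09 to 0.43 in the other 14 arrays. The atrial and brain natriuretic peptide genes Nppa and Nppb, the atrial light chain Myl7 and the cardiac myosin-binding protein Mybpc3 were not well above background in either array.

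Smooth muscle members were all above the 14 other arrays in M 2 (9% of all genes), and 6 of 7 in 0.5M 4 (8.42%). These counts too restate the choice of members. Myh11, the smooth muscle myosin heavy chain, was 3.19 in M 2, against -0.57, -0.98 and -0.78 in M 1, M 3 and M 4. It was 0.68 in 0.5M 4, against -0.70, -0.52 and -0.87 in 0.5M 1, 0.5M 2 and 0.5M 3. It was -0.28, -0.67, -1.22 and -0.94 in AhR 1 to AhR 4, and -0.48, -0.16, -0.91 and -0.75 in C 1 to C 4. M 2 and 0.5M 4 were both above the rest, M 2 by far more. Tagln, an actin-binding protein also called SM22, was 2.89 in M 2 and 0.59 in 0.5M 4, against -0.81 to -0.28 in the other 14 arrays. Cnn1, smooth muscle calponin, was 1.15 in M 2 and -0.037 in 0.5M 4, against -0.40 to 0.025 in the other 14 arrays, and was not well above background in 0.5M 4. The intermediate filament gene Synm was 2.02 in M 2 and 1.37 in 0.5M 4, against -0.32 to 0.58 in the other 14 arrays.

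Des, the intermediate filament desmin found in all 3 kinds of muscle and in stellate cells, was high in both arrays. It was 2.54 in M 2, against -0.32, -0.80 and -0.85 in M 1, M 3 and M 4. It was 2.58 in 0.5M 4, against -0.94, -0.46 and -0.64 in 0.5M 1, 0.5M 2 and 0.5M 3. It was -0.33, -0.93, -0.71 and -0.90 in AhR 1 to AhR 4, and -0.50, -0.77, -0.92 and -0.70 in C 1 to C 4. M 2 minus 0.5M 4 was -0.035 for Des with loess and -1.25 with median centring. Of 7 other stellate cell markers, none lay above the 14 arrays in both. Of 7 further smooth muscle genes none did so either. Mylk, the myosin light chain kinase of smooth muscle and other cells, was 1.96 in M 2 and 0.48 in 0.5M 4, against -0.11 to 0.71 in the other 14 arrays, and myocardin (Myocd) and Lmod1 were not well above background in either array.

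A direct comparison of M 2 with 0.5M 4 gave a median over the members of -0.20 log2 units for skeletal, -0.26 for heart and 1.23 for smooth muscle, against -0.0023 over all genes. The 8 members more than 1 log2 unit higher in M 2 (0.525% of all genes) were Actg2, Tpm2, Myh11, Tagln, Myh3, Tnnt2, Acta2 and Cnn1. The 4 more than 1 unit higher in 0.5M 4 (0.134% of all genes) were Pvalb, Myh1, Actn3 and Myh7. Of the smooth muscle members 5 of 7 were thus more than 1 unit higher in M 2 and none in 0.5M 4. Each array is a single pool of 2 pups, so these differences have no replicate check. Across the 37 members, the difference from the group's other arrays in M 2 and that in 0.5M 4 had a Pearson correlation of 0.83 and a Spearman correlation of 0.83, a description of genes that share the probes and the reference.

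The direction of small differences depended on the scaling. With each array centred on its median in place of loess, the median over skeletal genes became -1.45 and Tnnt1 and Synm turned to -0.31 and -0.54. The 8 genes higher in M 2 by over 1 unit and the 4 higher in 0.5M 4 kept their sign under all 5 other scalings. Their margin of 1 unit did not always hold. With median centring Tagln was 0.97, Cnn1 0.89, Myh3 0.79, Acta2 0.67, Tnnt2 0.51 and Myh7 -0.99. Further members then lay more than 1 unit higher in 0.5M 4, among them Acta1 (-1.44), Ckm (-1.73) and Des (-1.25). The 2 lists are thus those of the loess scale. Myh2, Tnnt3, Tnni1, Myl1, Acta1, Mb, Atp2a1, Cacna1s and Des changed sign under at least 1 scaling, and for them no direction is given.

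**Figure D3:**
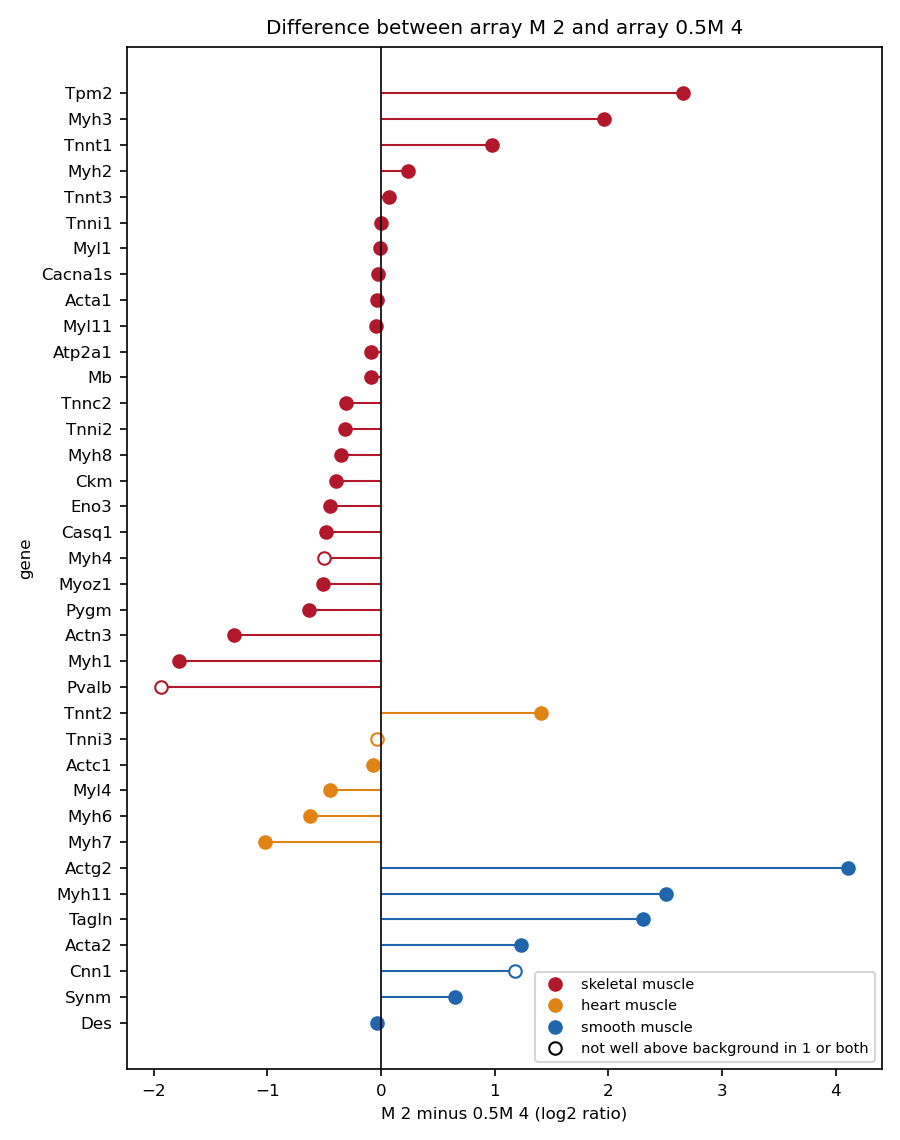
Difference in log2 ratio between array M 2 and array 0.5M 4 for each of the 37 members, sorted within class. Open circles mark probes not well above background in 1 or both arrays. Smooth muscle genes other than Des lie right of 0 (higher in M 2), Actg2 furthest, while Pvalb and Myh1 lie furthest left (higher in 0.5M 4).

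Repeated spots and second probes of the members were compared. For the 38 probes of members with more than 1 spot, the median range between spots was 0.239 log2 units in M 2 and 0.123 in 0.5M 4. The widest range was 0.83 in M 2, for Myh6, and 0.70 in 0.5M 4, for Myh1. Of the 7 genes with a second probe, Actg2, Casq1, Myh11, Myh2 and Myh3 had the same direction between M 2 and 0.5M 4 with either probe, as had Tnnt1. The second probe of Actg2 gave 4.38 in M 2 and -0.26 in 0.5M 4. The second probe of Synm was near 0 throughout, at -0.049 in M 2 and 0.0075 in 0.5M 4, so the value of Synm rests on 1 of 2 probes.

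Some bright members were also brighter in the reference channel of M 2 and 0.5M 4 than in that of the other 14 arrays, and others were not. For Myh8 the raw Cy5 signal was 11396 in M 2 and 38920.5 in 0.5M 4, against 85.2 to 220 in the other 14, and its raw Cy3 signal was 5166 and 4269, against 1667 to 3384. For Acta1 the raw Cy5 signal was 3710.2 and 8592, against 73.8 to 144, and the raw Cy3 signal 2220.2 and 1569.5, against 467 to 931. Tnni2 had a raw Cy5 signal of 5090 and 16400.5, against 71.5 to 163. Its raw Cy3 signal, 1447.5 and 1173, lay within the 784.5 to 1496 of the other 14. The raw Cy3 signal lay above the 14 arrays for 16 members in M 2 and 10 in 0.5M 4, and the raw Cy5 signal for 33 and 35. Raw signal is not scaled between arrays, and the same counts over all genes were not made, so nothing is read from these counts. A higher Cy3 signal makes the log2 ratio smaller. The cause of the higher Cy3 signal was not tested.

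Many other muscle genes, listed by role, were high in the same 2 arrays. Of 19 further sarcomere genes on the array, 16 lay above the 14 arrays in both. Of all genes 3.48% did, the share to set beside the counts of the lists below. Among the 16, Pdlim3, Mybph, Xirp2, Fbxo32 and Klhl40 were not well above background in M 2. Fbxo32 and Klhl40 were not so in 0.5M 4 either. Mybpc1, the slow myosin-binding protein C, was 3.22 in M 2 and 2.97 in 0.5M 4, against -1.35 to -0.33 in the other 14 arrays. Klhl41, of the sarcomere's upkeep, was 2.07 in M 2 and 2.31 in 0.5M 4, against -0.57 to -0.16 in the other 14 arrays, and the Z-disc gene Myot was 2.03 in M 2 and 2.98 in 0.5M 4, against -0.53 to 0.03 in the other 14 arrays. Lmod2, of the thin filament, was 1.83 in M 2 and 2.74 in 0.5M 4, against -0.45 to -0.16 in the other 14 arrays.

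Of 9 further genes of slow fibres, 6 lay above in both. Myl3, the slow and ventricular light chain, was 3.46 in M 2 and 3.47 in 0.5M 4, against -2.46 to -0.77 in the other 14 arrays. Sln, the pump inhibitor sarcolipin, was 3.61 in M 2 and 3.81 in 0.5M 4, against -1.95 to -0.51 in the other 14 arrays. Csrp3, the Z-disc protein MLP, was 3.48 in M 2 and 3.43 in 0.5M 4, against -1.90 to -0.24 in the other 14 arrays, and Casq2, the calsequestrin of heart and slow fibres, 2.92 in M 2 and 2.73 in 0.5M 4, against -0.84 to 0.047 in the other 14 arrays.

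Of 13 further genes of energy supply, 10 lay above in both. The cytochrome oxidase subunit Cox6a2 was 3.80 in M 2 and 4.07 in 0.5M 4, against -2.08 to -0.40 in the other 14 arrays. Mitochondrial creatine kinase Ckmt2 was 3.16 in M 2 and 3.67 in 0.5M 4, against -1.04 to -0.12 in the other 14 arrays, AMP deaminase Ampd1 2.84 in M 2 and 3.52 in 0.5M 4, against -1.07 to -0.21 in the other 14 arrays, and the glycolytic mutase Pgam2 2.48 in M 2 and 3.37 in 0.5M 4, against -1.35 to -0.22 in the other 14 arrays. Of 16 genes of excitation and calcium release, 6 lay above in both, led by Trdn (triadin), at 2.50 in M 2 and 2.76 in 0.5M 4, against -0.71 to -0.10 in the other 14 arrays. Jsrp1, another junction protein of the reticulum, was 1.65 in M 2 and 1.54 in 0.5M 4, against -0.048 to 0.44 in the other 14 arrays. Cacng1, a subunit of the calcium channel, was 1.05 in M 2 and 1.84 in 0.5M 4, against -0.20 to 0.07 in the other 14 arrays, and the calcium-binding Hrc 1.10 in M 2 and 1.76 in 0.5M 4, against -0.63 to 0.14 in the other 14 arrays.

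Regulators of the myogenic programme were measured too. Myog (myogenin) was 0.89 in M 2 and 1.33 in 0.5M 4, against -0.27 to 0.25 in the other 14 arrays and Myod1 0.81 in M 2 and 0.76 in 0.5M 4, against -0.13 to 0.042 in the other 14 arrays. Myf6, the factor of mature fibres, was 0.24 in M 2 and 0.99 in 0.5M 4, against -0.058 to 0.21 in the other 14 arrays, and was not well above background in M 2. Pax7, the marker of satellite cells, was not well above background in either array. Pax3, another factor of muscle precursors, was 0.96 in M 2 and 0.82 in 0.5M 4, against 0.80 to 1.28 in the other 14 arrays, and Mstn (myostatin) and Myf5 were likewise within the range of the other 14 arrays in both.

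Genes of connective tissue were high in the same arrays. Of 10 tendon and fibroblast genes, 7 lay above the 14 arrays in both, of which Postn was not well above background in 0.5M 4. The list's median difference from the 14 arrays was 1.62 in M 2 and 0.67 in 0.5M 4, against -0.08 to 0.12 in the others. Dcn (decorin) was 2.46 in M 2 and 2.04 in 0.5M 4, against -0.89 to -0.021 in the other 14 arrays, Scx, a transcription factor of tendon, 2.18 in M 2 and 2.04 in 0.5M 4, against -0.33 to 0.008 in the other 14 arrays, Col1a1 3.26 in M 2 and 2.91 in 0.5M 4, against 0.64 to 1.50 in the other 14 arrays and Col3a1 1.55 in M 2 and 1.59 in 0.5M 4, against 0.0027 to 0.66 in the other 14 arrays. The tendon marker Tnmd was not well above background in either array. The part of these cells in the muscle values was not tested.

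Of 7 genes of myelin and Schwann cells, 2 lay above in both, Pmp22 at 1.68 in M 2 and 1.61 in 0.5M 4, against 0.10 to 0.54 in the other 14 arrays and S100b at 0.22 in M 2 and 0.35 in 0.5M 4, against -0.17 to 0.15 in the other 14 arrays. The myelin gene Mbp was 0.037 in M 2 and 1.16 in 0.5M 4, against -0.36 to 0.22 in the other 14 arrays. Neither S100b nor Mbp was well above background in M 2. None of 5 mesothelium, 5 fat, 12 pancreas and 4 erythroid genes lay above the 14 arrays in both. Median differences of these lists in M 2 were 0.055, 0.17, -0.092 and -0.33, and in 0.5M 4 0.19, 0.11, -0.088 and -0.45, in the same order. The 2 erythroid genes below all 14 arrays in both were Alas2 and Slc4a1.

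By their median, hepatocyte genes lay within the range of the other arrays, though some single genes lay below it. Their median difference was -0.18 in M 2 and -0.21 in 0.5M 4, against -0.31 to 0.45 in the other 14. Of 18, none lay above the 14 arrays, and 3 lay below in M 2, 4 in 0.5M 4 and 3 in both (Hnf4a, Serpina1 and Pck1). Of all genes, 8.06% lay below in M 2, 7.54% in 0.5M 4 and 1.3% in both. Pck1, the enzyme of gluconeogenesis that fasting induces, was -2.45 in M 2 and -2.38 in 0.5M 4, against -2.09 to -0.68 in the other 14 arrays, and G6pc1 of the same pathway -2.11 in M 2 and -2.12 in 0.5M 4, against -2.17 to -0.031 in the other 14 arrays, inside the range of the others. Alb (albumin) was 0.40 in M 2 and 0.51 in 0.5M 4, against 0.015 to 1.21 in the other 14 arrays.

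Of genes with a symbol in none of the gene lists, the 15 most like the members were taken by the smaller of their 2 margins over the highest of the 14 arrays, among probes well above background in both. In order they were Apobec2, Fhl1, Cryab, Krt15, Mfap5, Sypl2, Tppp3, Lgals7, Gpc1, S100a4, Fitm1, Nrap, Gsn, Cav3 and Krt13. Apobec2, a deaminase relative known from striated muscle, was 3.36 in M 2 and 3.21 in 0.5M 4, against -2.28 to -0.81 in the other 14 arrays. Fhl1, a LIM protein of muscle, was 3.71 in M 2 and 3.43 in 0.5M 4, against -1.13 to -0.35 in the other 14 arrays, and the chaperone Cryab (alpha B crystallin) 3.09 in M 2 and 2.98 in 0.5M 4, against -1.23 to -0.55 in the other 14 arrays. Nrap, of developing myofibrils, was 2.65 in M 2 and 2.85 in 0.5M 4, against -1.18 to -0.10 in the other 14 arrays, and Cav3, the caveolin of muscle, 2.38 in M 2 and 2.76 in 0.5M 4, against -0.82 to -0.13 in the other 14 arrays. The genes given values from this order were picked from the 15 for their known roles after their values were seen, and no theme of the 15 was tested.

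Krt15, a keratin of basal cells, was 3.64 in M 2 and 3.21 in 0.5M 4, against -1.63 to -0.21 in the other 14 arrays. Lgals7, a galectin of stratified epithelium, was 3.71 in M 2 and 2.90 in 0.5M 4, against -1.60 to -0.27 in the other 14 arrays. Krt13, a keratin of internal squamous epithelium such as oesophagus, was 2.34 in M 2 and 2.54 in 0.5M 4, against -0.77 to -0.034 in the other 14 arrays. A list of squamous epithelium genes was drawn up after these were seen, so it is a description only. Of 15 on the array, 8 lay above the 14 arrays in both, among them Krt14 at 1.65 in M 2 and 2.32 in 0.5M 4, against -0.46 to -0.034 in the other 14 arrays, Krt4 at 1.49 in M 2 and 2.01 in 0.5M 4, against -0.32 to 0.073 in the other 14 arrays and Krt5 at 1.38 in M 2 and 1.54 in 0.5M 4, against -0.39 to 0.018 in the other 14 arrays. The list's median difference was 1.05 in M 2 and 0.36 in 0.5M 4, against -0.093 to 0.15 in the others.

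Some of these genes parted the 2 arrays. Sprr3, of the cornified envelope, was 1.12 in M 2 and 0.18 in 0.5M 4, against -0.17 to 0.30 in the other 14 arrays, and the skin keratin Krt1 2.11 in M 2 and -0.12 in 0.5M 4, against -0.34 to 0.048 in the other 14 arrays. Krt1 was the 1 of 3 skin genes above the 14 arrays in M 2, since Krt2 and Krt31 were within their range in both arrays. Ivl, Ppl, Dsc3 and Dsg3 were not well above background in either array. Of lists drawn up in the same way, none of 8 genes of glandular stomach, 5 of intestine and 6 of simple epithelium lay above the 14 arrays in both. The part of epithelial RNA in the muscle values was not tested.

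**Figure D4:**
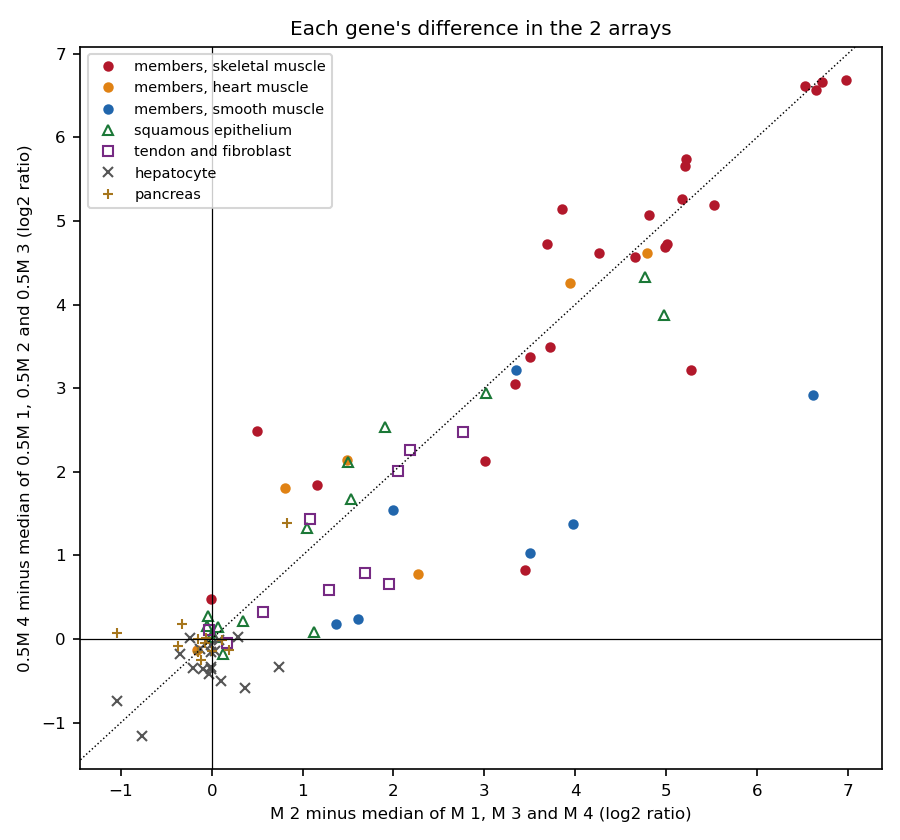
Each point is a gene: the horizontal axis is M 2 minus the median of M 1, M 3 and M 4, the vertical axis 0.5M 4 minus the median of 0.5M 1, 0.5M 2 and 0.5M 3, both in log2 ratio, and the dotted line marks equality. Most skeletal genes lie near the line, up to 6.98, and most smooth muscle genes lie below it. Hepatocyte genes lie between -1.04 and 0.74 on the horizontal axis and between -1.16 and 0.023 on the vertical.

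In all, 138 of the 26872 genes lay more than 1 log2 unit above the 14 arrays in both. Of these 111 had a symbol, 25 were members, 24 were in the other muscle lists, 6 in the squamous list, 3 in the tendon and fibroblast list and 1 in the nerve list. Another 52 with a symbol were in none.

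The comparisons of the groups ask whether the mixtures changed these transcripts. The fits on all 16 arrays hold the values that chose the members and are given only as a description. In them 24 of the 37 members passed the filter of 4 arrays well above background, of which Ckm, Myh1, Pygm and Myoz1 did so only through M 2 and 0.5M 4. None of the 24 passed an adjusted p of 0.05 by limma in M against C, where 0.319% of 13146 transcripts did, in 0.5M against C (0.0152%) or in AhR against C (0.00761%). At an unadjusted p under 0.05 by limma the counts were 1, 1 and 0, against 1334, 858 and 498 of all 13146 transcripts. The smallest adjusted p of limma was 0.459 in M and 0.748 in 0.5M, both for Tnni3, and 1 in AhR, for Synm. Tnni3 averaged 0.12 in M and 0.11 in 0.5M, against 0.35 in C (n = 4 arrays each), log2 differences of -0.23 ± 0.10 and -0.24 ± 0.10 (SE).

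The median log2 difference of the 24 was 1.08 in M and 1.19 in 0.5M, where 1 array in each is high, and 0.025 in AhR. Over all transcripts it was -0.0019, -0.0035 and 0.00021. The median standard error of the members was 0.971, against 0.104 over all transcripts. Actg2, for example, averaged -0.26 in M, against -2.34 in C, a difference of 2.08 ± 1.07 (SE, n = 4 arrays each) with an adjusted p of 0.534 by limma.

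Without M 2 and 0.5M 4, 20 members passed the filter. Again none passed an adjusted p of 0.05 in M against C (0.423% of 13000 transcripts did), in 0.5M against C (0.0231%) or in AhR against C (0.00769%). The counts at an unadjusted p under 0.05 by limma were 3, 0 and 1 of the 20. Of all 13000 transcripts, 1287, 708 and 532 were under 0.05 in the same comparisons, so nothing is read from the member counts. The median differences of the 20 were 0.21 in M, 0.014 in 0.5M and 0.053 in AhR, and their median standard error was 0.148 in M and 0.5M.

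The 3 members in M were Tnnt1, Mb and Actg2. Tnnt1 averaged -0.12 ± 0.23 in M, against -0.39 ± 0.13 in C (SD, n = 3 and 4), a difference of 0.30 ± 0.11 (SE) with an adjusted p of 0.349 by limma. Mb differed by 0.46 ± 0.17 (adjusted p 0.35 by limma) and Actg2 by 0.57 ± 0.26 (adjusted p 0.504 by limma). The 10 skeletal members tested were all higher in M than in C, with a median of 0.30. With the dim array M 1 left out as well, 4 of the 10 were higher and their median was -0.0048, so the direction of the list in M rests on M 1. Tnnt1 then differed by 0.41 ± 0.12, with an adjusted p of 0.252 by limma, the smallest of the 20. Mb then differed by 0.29 ± 0.19 (unadjusted p 0.153, adjusted p 0.683 by limma) and Actg2 by 0.36 ± 0.31 (unadjusted p 0.269, adjusted p 0.79 by limma), so neither kept an unadjusted p under 0.05 without M 1. In AhR the member at an unadjusted p under 0.05 was Synm, at -0.11 ± 0.25 in AhR, against 0.18 ± 0.29 in C (SD, n = 4 each), with an adjusted p of 1 by limma.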

How the data were processed

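The authors deposited 1 scan file per array, written by Agilent Feature Extraction 10.7.3.1 per the file headers, with median signal and background as scanner intensity for both channels, a log10 ratio of Cy5 over Cy3 and quality marks of 0 or 1 (unit other). The authors also deposited a table on the log2 scale whose making is not given in the sources used here; across probes it correlated at 0.965 to 0.991 with the values below, and at most 0.882 with another array's. Its column medians were -0.0093 to 0.012.

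Median signals were corrected with normexp (offset 50) and loess in limma 3.58.1 (R 4.3.3). Spots marked as outliers were left out, spots of a probe averaged, and the brightest probe of a gene used. Genes were named through RefSeq accessions, giving 18004 of 30367 probes a symbol. Probes not well above background on at least 4 arrays were not tested. The limma model had group and slide, with Benjamini-Hochberg adjustment over all transcripts within a comparison. P-values measure the spread between arrays, whose number limits the precision. The model was tested on simulated data. No probe was marked saturated. Per-array values were given for the genes that carry the account of fibre type and muscle class, and up to 4 genes of each other list by the smaller margin over the other arrays. Further genes named from these lists, among them Mbp, Mylk, Tnmd, Myl7, Nppb, Pax7, Pax3, Myf5, Pck1, G6pc1, Serpina1 and Alb, and those of epithelium, were chosen after their values were seen. The count over the list of myogenic regulators is not reported here. The members and lists were chosen with earlier results of these data known. Alternatives tried were other scalings and filters, no slide term, a replicate block, array weights, each slide alone, the deposited table and leaving out arrays. The drawings used matplotlib.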

Additional observations from a re-analysis of the deposited data

Results flagged for a closer look

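Within a group of 4 arrays, the gap between the highest or lowest array and the next, as a share of the group's whole range, passed Dixon's critical value for 38 member and group pairs. Since the members were selected on high values in M 2 and 0.5M 4, the shares for these arrays restate that choice and are a description only. In M, 10 of 37 members passed, all for M 2, with shares for Tnnt1 (0.859), Tpm2 (0.915), Eno3 (0.854), Myh6 (0.864), Tnnt2 (0.895), Acta2 (0.877), Myh11 (0.902), Cnn1 (0.859), Tagln (0.899) and Des (0.844). In 0.5M, 26 of 37 passed, all for 0.5M 4. The largest shares were those of Myh7 (0.953), Pvalb (0.948), Actc1 (0.945), Myh6 (0.929), Myl1 (0.922), Actn3 (0.92), Myh1 (0.917) and Tnnt2 (0.899). The others were Myh2 (0.892), Tnnt1 (0.883), Cacna1s (0.882), Eno3 (0.881), Mb (0.879), Myoz1 (0.879), Myl4 (0.879), Myl11 (0.873), Tnnc2 (0.87), Tnni2 (0.869), Acta1 (0.865), Des (0.864), Casq1 (0.847), Myh4 (0.846), Pygm (0.846), Myh3 (0.841), Tnni1 (0.837) and Myh8 (0.833). In the groups whose arrays did not choose the members, chance would pass about 1 in 20 for a single gene with normally spread values. Members measured on the same array are not independent, and the same counts over all genes were not made, so nothing is read from the counts. In AhR, 2 of 37 passed for AhR 1, Eno3 (0.839) and Actg2 (0.992), and in C none of 37 did. Eno3 was -1.14 in AhR 1 and Actg2 -1.19, against lower values in the other AhR arrays, and AhR 1 had 8828 probes well above background.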

How the results depend on the processing

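No member passed an adjusted p of 0.05 by limma in any of the 6 group comparisons under any of the 19 or 20 alternatives tried for each, with counts of 0 to 0 when single arrays were left out, 0 with each slide alone and 0 with a replicate block. The smallest adjusted p of a member under an alternative was 0.122 (M against C without M 2 and 0.5M 4). Over all transcripts, M against C gave 42 calls and between 1 (median centring) and 66 (array weights) under the alternatives, with 22 to 27 when C 4, M 3, C 1 or M 1 was left out. Without M 2 and 0.5M 4 it gave 55, and between 0 (median centring) and 70 (array weights). The replicate block gave 41 calls. Same-numbered arrays had correlated deviations (over 0.1) in 13 of 18 pairs, at -0.20 to 0.52, but in 2 of 18 once the slide was removed, so the numbers were not treated as pairing. The class medians moved with background and scaling. With median centring, skeletal, heart and smooth medians were 3.31, 1.15 and 2.06 for M 2 minus its group's others, 5.10, 1.67 and 1.87 for 0.5M 4, and -1.45, -0.99 and 0.89 for M 2 minus 0.5M 4. With the scanner's log ratio they were 6.91, 4.45 and 4.65 for M 2, 6.85, 4.39 and 1.82 for 0.5M 4, and 2.95 for smooth M 2 minus 0.5M 4. With plain subtraction they were 7.57, 5.33 and 4.70 for M 2, 7.44, 4.96 and 1.81 for 0.5M 4, and 2.63 for smooth M 2 minus 0.5M 4. The heart median in 0.5M 4 was 2.14 in the authors' deposited table and 2.16 without background correction, and the smooth median 0.995 with the mean of all probes of a gene. None of these medians changed sign. Members not well above background in the other arrays of a group have only bounds there.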

Other observations

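Among genes in no list, those furthest apart between the 2 arrays were chosen after their values were seen, from probes well above background in the higher one. Higher in M 2 were the protease inhibitors Csta and Stfa3, at 3.79 in M 2 and 0.30 in 0.5M 4, against -0.66 to -0.063 in the other 14 arrays and at 3.58 in M 2 and 0.51 in 0.5M 4, against -0.80 to 0.06 in the other 14 arrays, and S100a7l2, at 2.68 in M 2 and 0.60 in 0.5M 4, against -0.54 to 0.085 in the other 14 arrays. The major histocompatibility class II gene RT1-Bb was 1.46 in M 2 and -0.76 in 0.5M 4, against -1.49 to 0.44 in the other 14 arrays, and RT1-Da and RT1-Db1 differed by 1.84 and 1.85. Higher in 0.5M 4 was Rpl3l, a ribosomal protein gene of striated muscle, at 1.45 in M 2 and 2.71 in 0.5M 4, against -0.56 to -0.044 in the other 14 arrays. Afp (alpha-fetoprotein) was 0.13 in M 2 and 1.86 in 0.5M 4, against 0.77 to 2.65 in the other 14 arrays, so M 2 lay below the range of the other 14 and 0.5M 4 within it.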
